A study of Gallus gallus with 33 samples.

Results

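Transcription factor expression 1 hr after a laser wound was measured in cultured sensory epithelia (SE) from chicks. They came from the utricle, one of the organs of balance in the inner ear. The arrays were chosen by the label that puts them at the 1 hr time point, and they number 6 of the 33 arrays of the series and 2 of its 9 biological samples. Replicate 1 was hybridized to 4 arrays and replicate 2 to 2. On each array, amplified RNA of laser-wounded cultures and of unlesioned cultures harvested at the same time was hybridized together, with Cy3 on one RNA and Cy5 on the other. The cultures compared therefore differed in the linear wound made with a pulsed laser microbeam, and the unlesioned cultures served as time-matched controls. The SE had been separated from the utricle and grown on coated wells before wounding, and cultures were pooled into each biological sample, so a sample is not 1 animal. No genotype, strain or age is given by the labels. The other groups used for comparison were the same preparation harvested 30 min, 2 hr or 3 hr after the wound.

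All 1518 identifiers on the array were described, after 16 mismatch control identifiers had been left out. Each is a 50-base oligonucleotide designed on a human gene, mostly a transcription factor, and was used across species on chick RNA, so a signal is that of the human probe and the chick transcript bound by it was not verified. Of the 1518 identifiers, 1516 had 2 spots and 2 had 4. In the RefSeq gene table for chicken (GRCg7b) 754 identifiers are current symbols, and 816 (53.8%) are found when synonyms are included. That share counts matching names, so an older symbol such as HNF3A is missed, and it says nothing of sequence. The paper reports, without showing the data, that nearly all probes share most of their sequence with the correct chicken ortholog. Gene names were kept as the files give them.

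As background, the utricle SE holds hair cells, the receptors of head movement, and supporting cells, which in birds can divide and give rise to new hair cells after damage. A cut epithelium closes by the spreading of cells at its edge, and cells near a wound first switch on immediate-early genes such as FOS, JUN and EGR1, whose products are themselves transcription factors. Later programmes in this tissue are known to run through the Notch pathway, which holds supporting cells in their state by way of HES and HEY repressors, through the PAX and EYA factors of the developing ear and their partners, and through cell cycle regulators.

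The 6 arrays differed widely in brightness. Their image names also carry different values of a setting g, read here as the scanner gain. It was 40 to 45 on the arrays of replicate 1 and 25 and 20 on those of replicate 2, the same in Cy3 and Cy5. Signals were not scaled for gain before they were compared with a level of 1000, and its part in the brightness was not tested. The median spot signal, in linear scanner units, was 305 to 1668 in Cy3 and 169 to 395 in Cy5. The image names also hold a date-like value, read here as the scan session. The arrays number 1 of replicate 1, its arrays number 2 and the arrays of replicate 2 each had a value of their own. The arrays number 2 of replicate 1 were the brightest, with 1094 and 1198 identifiers above a signal of 1000 in either channel. The arrays number 1 of replicate 1 had 304 and 59 such identifiers, and the arrays of replicate 2 had 136 and 351. On the replicate 2 arrays 58.8% to 75.1% of the Cy3 spots and 81.3% to 82.3% of the Cy5 spots were dimmer than their own local background, against 1.11% to 3.78% and 2.15% to 17.4% on the arrays number 2 of replicate 1. Signal in the Cy3 channel exceeded that in Cy5 on every one of the 6 arrays, whichever RNA it held. Within an array the duplicate spots of a tested probe gave ratios that correlated at 0.836 to 0.959 after normalization.

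**Figure D1:**
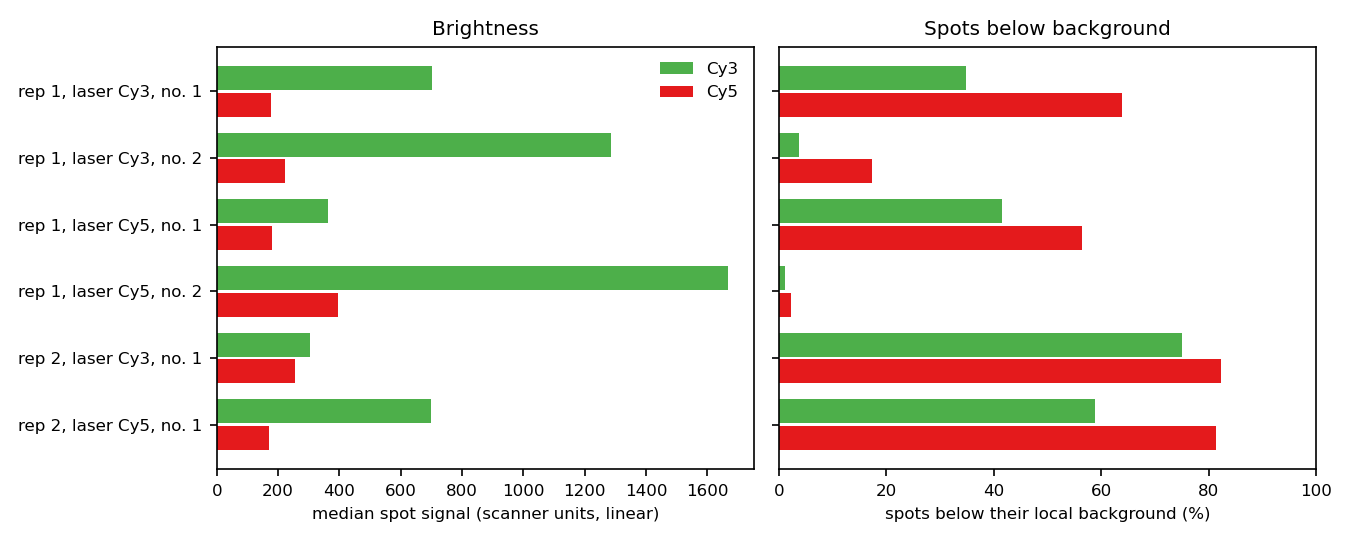
Median spot signal (left, linear scanner units) and share of spots below their local background (right, percent) in the Cy3 and Cy5 channels of each 1 hr array. The arrays number 2 of replicate 1 had 1.11% to 17.4% of spots below background, and the arrays of replicate 2 had 58.8% to 82.3%.

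Each change below is the log2 of the wounded over the control signal, and a value above 0 is a higher signal in the wounded SE. A probe was tested where either of its channels exceeded a signal of 1000 on 50% or more of all 33 arrays, and 371 of the 1518 identifiers (24.4%) met this. Arrays with the same dye on the wounded RNA were averaged within a sample, both orientations then counted equally, and the mean of both samples was tested against 0 in limma with a spread shared over all time points. Every SE given with a mean or a difference comes from that fit. It reflects the spread of all 9 samples and can be far from that of the 2 samples of 1 hr alone.

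Opposite dye orientations of one RNA pair should show the same ratio, and they did so to differing degrees. Across the 371 tested probes, which are not independent replicates, the ratios of both orientations correlated at 0.10 for the arrays number 1 of replicate 1, at 0.35 for its arrays number 2 and at -0.64 for replicate 2. In the brightest pair 67 probes (18.1%) were over 1.2-fold higher after the wound in both orientations, 24 (6.47%) were over 1.2-fold lower in both, and 29 (7.82%) moved by that much in opposite directions. In the replicate 2 pair 3 probes were higher in both, 11 were lower in both, and 111 (29.9%) moved in opposite directions. The part of the ratio that followed the dye had an SD across probes of 0.66 in replicate 2 and 0.21 in replicate 1, while the part that followed the wound had an SD of 0.31 and 0.29. With this negative correlation, the direction of replicate 2 rests on the image names in the file headers, which name the wounded RNA and its dye on all 6 arrays and match the titles. Values of the named probes with either of its arrays turned the other way are among the processing alternatives.

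**Figure D2:**
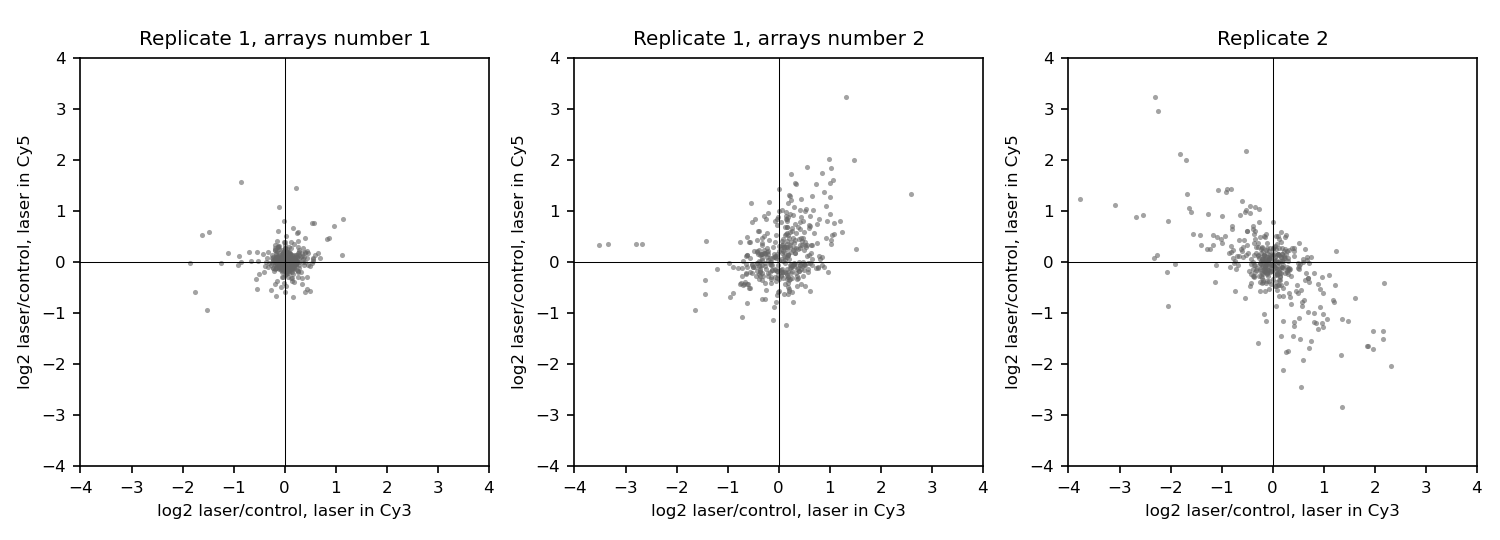
Log2 laser/control ratio of the 371 tested probes with the wounded RNA in Cy3 (x axis) and in Cy5 (y axis). The 3 pairs of arrays are those that share a scan session as read from the image names. The points rise along the diagonal in the arrays number 2 of replicate 1 (r = 0.35), form a round cloud in the arrays number 1 (r = 0.10), and fall along the other diagonal in replicate 2 (r = -0.64).

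After averaging over dyes, the samples shared little. The ratios of replicate 1 and replicate 2 correlated at 0.033 over the tested probes. Of the 371 probes 191 (51.5%) had the same sign in both samples, 101 higher and 90 lower, and the median gap between the samples was 0.23 on the log2 scale. With samples of the other time points, replicate 1 correlated at -0.20 to 0.19 and replicate 2 at -0.26 to 0.38, so each correlated more with at least 1 sample of another time than with its partner.

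No probe passed the test at 1 hr. In limma 0 of 371 probes (0%) had a Benjamini-Hochberg adjusted p under 0.05, the smallest adjusted p was 0.991, and 4 probes had an unadjusted p under 0.05. A share of 0.05 of the tests would fall under that value where nothing changed, and 4 of 371 is below that share. The median standard error of a 1 hr mean was 0.22 (log2), and a 1.2-fold change is 0.26 on that scale. With 2 samples an exact sign test of a single probe cannot reach 0.05. By size alone, 34 probes (9.16%) had a mean over 1.2-fold higher and 33 (8.89%) over 1.2-fold lower. Of those past 1.2-fold, the share that was higher was 50.7%, and it was 67.3% without background correction, 76.2% with median centring of each array and 91.7% in the median-centred deposited ratios, where the median of the tested probes moved from 0.0022 to at most 0.0885. In both samples at once, 15 probes (4.04%) were over 1.2-fold higher and 5 (1.35%) over 1.2-fold lower.

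**Figure D3:**
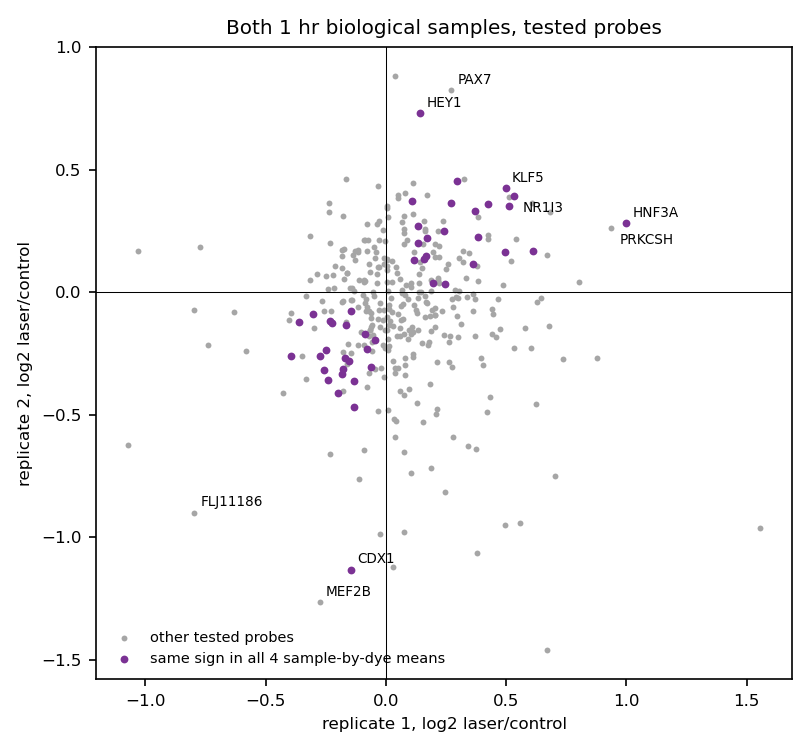
Mean log2 laser/control ratio of each tested probe in replicate 1 (x axis) and replicate 2 (y axis). The 46 probes with 1 sign in all 4 sample-by-dye means are purple, and the cloud of 371 probes shows no slope (r = 0.033).

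Of the 371 probes 46 (12.4%) had the same sign in all 4 sample-by-dye means, 23 higher and 23 lower, and 14 had the same sign on all 6 arrays, 11 higher and 3 lower. Independent random signs would agree in all 4 means, or on all 6 arrays, for about as many of the probes. Membership of the set therefore does not mark a response, and none of the 46 passed the adjusted test. Only EEF1A1 and FOG2 exceeded 1.2-fold in all 4 means, both on the higher side. The probes with the largest means on each side are described here with their arrays in a fixed order, replicate 1 first, with the wounded RNA in Cy3 and then in Cy5.

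The largest mean of the higher side came mainly from 1 pair of arrays. HNF3A (now FOXA1), a forkhead factor that opens chromatin in endoderm, had the highest mean of all tested probes, 0.64 ± 0.40 (SE of the limma fit), a 1.56-fold difference. Its ratios in replicate 1 were -0.18 and 2.59 with the wounded RNA in Cy3 and 0.27 and 1.32 in Cy5, and in replicate 2 they were 0.12 and 0.44. The sample means were 1.00 and 0.28, so the size of the mean rested on the brighter pair of replicate 1. NR1I3, a nuclear receptor that senses foreign compounds, had ratios of 0.044, 1.25, 0.26 and 0.58 in replicate 1 and 0.25 and 0.53 in replicate 2, a mean of 0.46 ± 0.39 (SE). It was above 0 on all 6 arrays. KLF5, a zinc finger factor linked to the growth of epithelial cells, had sample means of 0.50 and 0.43, with array ratios of 0.18, 1.08, -0.026 and 0.76 in replicate 1 and 0.74 and 0.11 in replicate 2.

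A pair of basic helix-loop-helix repressors of the Notch pathway stood among the 10 probes of the higher side. HEY1, a direct Notch target in many tissues, had ratios of -0.0051, 0.30, 0.0061 and 0.27 in replicate 1 and 1.25 and 0.21 in replicate 2, with a mean of 0.44 ± 0.19 (SE), unadjusted limma p = 0.0554. One array of replicate 2 stood well above the other 5, and HEY1 was above a signal of 1000 on only 2 of the 6 arrays. HES7, known from the segmentation clock of the embryo, had ratios of 1.15, 0.58, 0.85 and -0.14 in replicate 1 and 0.071 and 0.26 in replicate 2. It was one of 17 identifiers above 1000 in either channel on all 6 arrays, and its mean was 0.39 ± 0.41 (SE).

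The other 5 probes of the higher side were above 0 on all 6 arrays. DCTN2, a subunit of the dynactin complex of microtubule transport, lay between 0.24 and 0.74 on every array and had sample means of 0.43 and 0.36. EEF1A1, the translation elongation factor, had sample means of 0.37 and 0.33 and array ratios from 0.052 to 0.73. FOG2 (now ZFPM2), a cofactor of GATA factors, had array ratios from 0.13 to 1.01 and sample means of 0.51 and 0.35, with a mean of 0.43 ± 0.22 (SE). MTA1L1 (now MTA2), a subunit of the NuRD chromatin complex, had sample means of 0.29 and 0.45. TAF2C1 (now TAF4), a subunit of the general factor TFIID, had sample means of 0.50 and 0.16, and 1 array of replicate 1 gave 1.53 where the other 5 gave 0.032 to 0.35. With the spread shared over time points, each of these 5 probes had an adjusted limma p of 0.991.

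On the lower side the means were smaller except for 1 probe. CDX1, a caudal homeobox factor of the hind body and gut, had a mean of -0.64 ± 0.52 (SE), and its ratios were 0.13, -0.26, -0.041 and -0.42 in replicate 1 and -2.08 and -0.19 in replicate 2. That mean rested on 1 array, since the other 5 lay between -0.42 and 0.13. SNAPC4, a subunit of the small nuclear RNA activating complex, had sample means of -0.40 and -0.26 and a mean of -0.33 ± 0.14 (SE), unadjusted limma p = 0.0514. On 1 array of replicate 1 SNAPC4 was above 0, at 0.16. On the arrays of replicate 2 its wounded channel read 357 in Cy3 and 173 in Cy5. The median local backgrounds of those channels were 469 and 218. TRAF5, an adaptor of the tumour necrosis factor receptor family, was below 0 on all 6 arrays, from -0.39 to -0.050, with a mean of -0.25 ± 0.18 (SE). TRAF5 was above a signal of 1000 on only 3 of the 6 arrays. Its wounded channel read 441 and 186 in replicate 2, also below those median backgrounds. ZFY, a zinc finger factor, and HOXA6, a homeobox factor of axial patterning, were also below 0 on all 6 arrays, with means of -0.30 ± 0.48 (SE) and -0.25 ± 0.30 (SE). The T-box factor TBX15 and the probes ZIM2, BC002881 and LOC57209 had means of -0.26, -0.31, -0.30 and -0.27. Each of these 4 had at least 1 array of replicate 1 above 0.

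**Figure D4:**
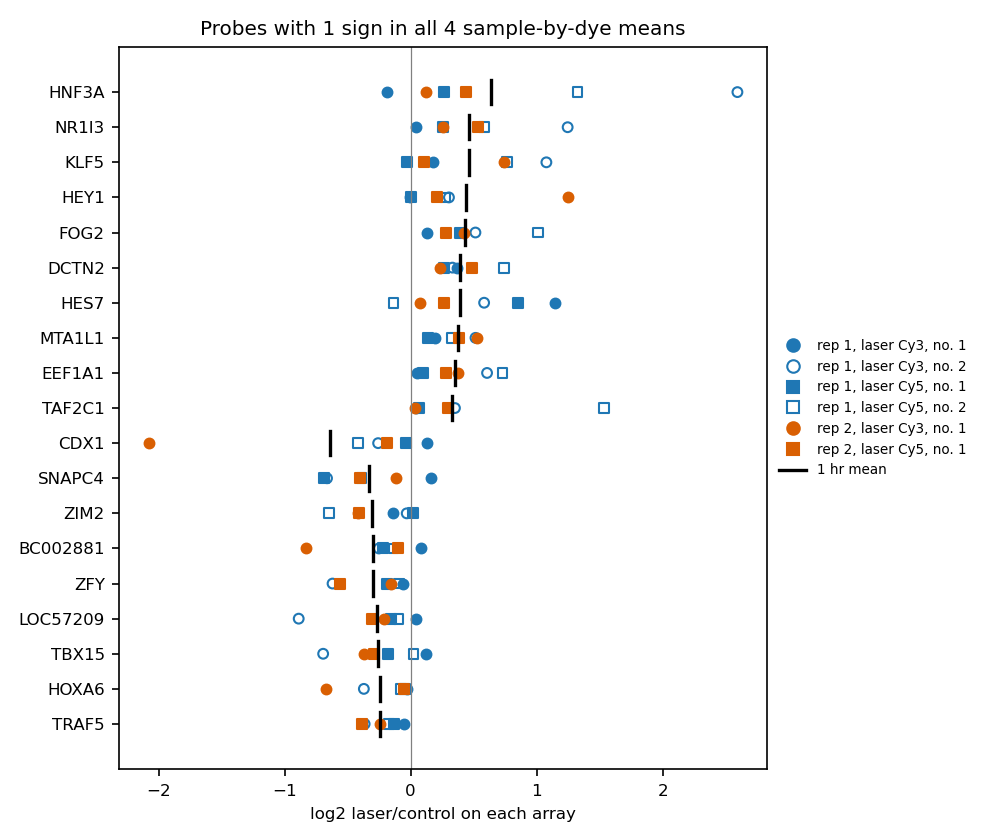
Log2 laser/control ratio on each of the 6 arrays (points) and the 1 hr mean (black bar) for 10 higher and 9 lower probes with the largest means among those with 1 sign in all 4 sample-by-dye means. Blue is replicate 1 and orange replicate 2, circles have the wounded RNA in Cy3 and squares in Cy5, and open symbols are the brighter arrays number 2.

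The 4 probes with an unadjusted limma p under 0.05 were all higher after the wound. PRKCSH, a subunit of the glucosidase that trims newly made glycoproteins, had ratios of -0.14, 1.48, 0.41 and 2.00 in replicate 1 and -0.90 and 1.43 in replicate 2, with a mean of 0.60 ± 0.19 (SE), unadjusted limma p = 0.0140. XBP1, the factor that drives the unfolded protein response of the endoplasmic reticulum, had ratios of -0.18, 1.06, 0.23 and 1.62 in replicate 1 and -0.44 and 1.09 in replicate 2, with a mean of 0.50 ± 0.16 (SE), unadjusted limma p = 0.0149. Both probes were above 0 on 4 of 6 arrays, were highest on the brighter Cy5 array of replicate 1, and changed sign with the dye in replicate 2.

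PAX7, a paired box factor of muscle and neural crest, had ratios of -0.017, -0.20, 0.12 and 1.18 in replicate 1 and -0.53 and 2.18 in replicate 2. Every array with the wounded RNA in Cy3 was below 0 and every array with it in Cy5 was above 0. Its mean was 0.55 ± 0.18 (SE), unadjusted limma p = 0.0182. ADORA2A, an adenosine receptor that raises cyclic AMP, was above 0 on all 4 arrays of replicate 1, at 0.26, 0.92, 0.41 and 1.09, and was -1.82 and 2.12 on the arrays of replicate 2. Its mean was 0.41 ± 0.16 (SE), a 1.33-fold difference with unadjusted limma p = 0.0343. With thresholds like those of the study's methods (unadjusted p under 0.05, over 1.2-fold and the same sign on at least 80% of the arrays), ADORA2A was the 1 probe that passed, on 5 of 6 arrays. That count ranged from 0 to 12 when single samples of any time point were left out, and it was 12 without replicate 1 of 3 hr.

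The brightest pair of replicate 1 gave 6 probes over 2-fold higher in both orientations and 0 over 2-fold lower, and these 6 were picked out after their values were seen. Besides HNF3A, PRKCSH and XBP1, they were CEBPG, a CCAAT/enhancer binding factor, AY044845, and MNT, a repressor that pairs with MAX and opposes MYC. CEBPG gave 1.32 and 3.24 in that pair, and its sample means were 1.56 and -0.96. AY044845 gave 1.02 and 1.85, with sample means of 0.88 and -0.27. MNT gave 1.01 and 1.27, with sample means of 0.51 and 0.39. The means of replicate 2 were thus below 0 for CEBPG and AY044845 and above 0 for MNT. In replicate 2, however, MNT was -0.26 with the wounded RNA in Cy3 and 1.04 in Cy5. On the arrays number 1 of replicate 1 MNT was below 0, at -0.118 and -0.116. In the arrays number 1 of the same RNA pair, and in replicate 2, 0 probes exceeded 2-fold in both orientations with the same sign, while in replicate 2 there were 21 (5.66%) past 2-fold with opposite signs.

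Of all identifiers 212 were above 1000 in either channel on 0 of the 6 arrays, and only 5 of 1518 (0.329%) exceeded 1000 in Cy3 as well as in Cy5 on 80% or more of the 6 arrays. Among them were AF5Q31 (now AFF4), a scaffold of a transcription elongation complex, the myocyte enhancer factor MEF2B, PRDM13, a factor of neural development, and FLJ11186. These 4 had means below 0 in the main setting, although AF5Q31 and PRDM13 were above 0 with median centring and all but MEF2B were above 0 in the deposited ratios. The means were -0.85 ± 0.75 for FLJ11186, -0.77 ± 0.66 for MEF2B, -0.34 ± 0.55 for PRDM13 and -0.24 ± 0.89 for AF5Q31 (SE of the limma fit). Sample means were -0.80 and -0.90 for FLJ11186, -0.28 and -1.26 for MEF2B, -0.33 and -0.36 for PRDM13 and -0.39 and -0.087 for AF5Q31. In replicate 2 MEF2B was -3.76 with the wounded RNA in Cy3 and 1.24 in Cy5. FLJ11186 was -2.68 and 0.88 there, so both of these probes changed sign with the dye in that sample. On the brighter Cy3 array of replicate 1 AF5Q31 gave -2.79, where its other arrays lay between -0.11 and 0.59, and PRDM13 gave -3.34.

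Several of these bright probes lay near the limit of the scanner, where a ratio is at most a bound. A signal above 60000, close to the largest value that the files hold, was found on 4 of 6 arrays for AF5Q31, on 2 for FLJ11186 and PRDM13 and on 0 for MEF2B. On the brighter Cy3 array of replicate 1 the wounded channel read 65433 for FLJ11186, 65530 for AF5Q31 and 65412 for PRDM13, against 27070, 28884 and 40893 in the control channel. FLJ11186 was one of 2 probes called when the 1 hr samples were fitted alone, at an adjusted limma p of 0.0245. The deposited ratios without further normalization than centring gave it a mean of 0.050.

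Some probes had dye effects of the same sign in both samples, and for those described here other than FLJ11186 the effects were large in replicate 2 alone. AB026190 had ratios of 0.16, 0.15, 0.085 and 0.90 in replicate 1 and -2.30 and 3.23 in replicate 2. BAPX1 (now NKX3-2), a homeobox factor of cartilage and gut, was -2.24 and 2.97 in replicate 2 and between -0.12 and 1.36 in replicate 1. FLJ11186 and ADORA2A were also among the 5 probes with the largest excess in Cy5. On the Cy3 side stood FOXP1, a forkhead repressor, at 2.32 and -2.04 in replicate 2, MADH7 (now SMAD7), an inhibitor of TGF-beta signalling, at 2.17 and -1.36, TCF21, a mesenchymal helix-loop-helix factor, at 1.86 and -1.66, C21orf18 at 2.16 and -1.52, and the AP-1 subunit JUNB at 1.36 and -2.84. In replicate 1 the arrays of FOXP1 lay between 0.018 and 0.56 and those of MADH7 between -0.13 and 0.19. Their averages over dyes were small against these swings, 0.18 for FOXP1, 0.24 for MADH7, 0.072 for TCF21 and 0.22 for C21orf18.

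**Figure D5:**
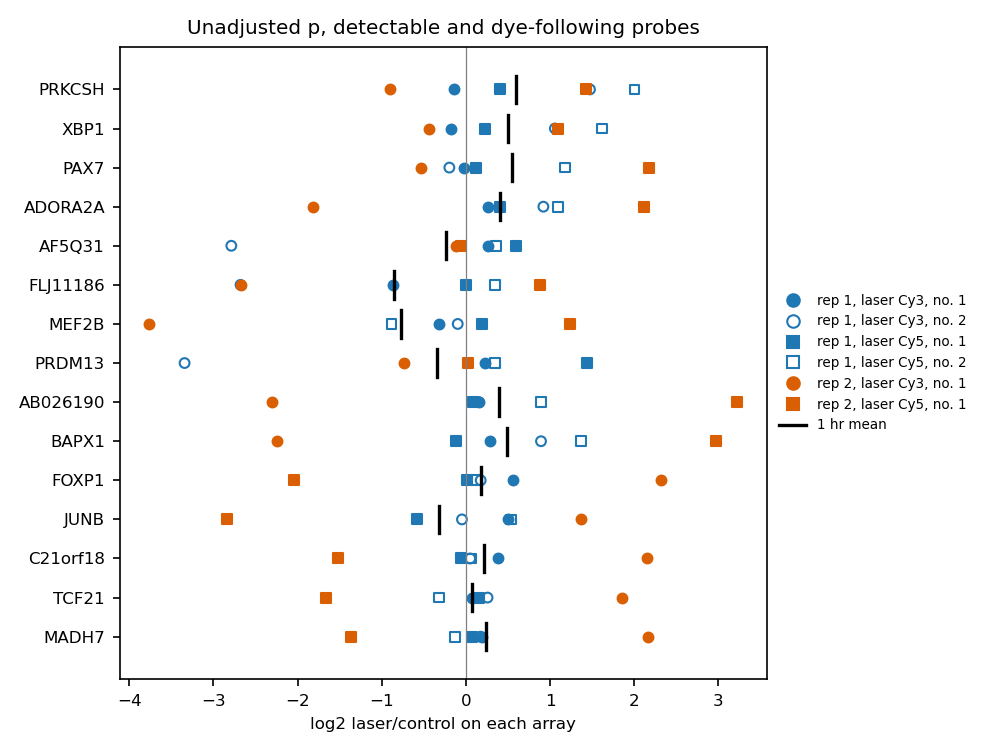
Log2 laser/control ratio on each of the 6 arrays (points) and the 1 hr mean (black bar) for the probes with unadjusted p under 0.05, 4 of the 5 detectable probes and those that followed the dye. The symbols are those of the plot of same-sign probes, and for most probes the orange circle and square of replicate 2 lie on opposite sides of 0, as for AB026190 at -2.30 and 3.23.

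Immediate-early genes had no member past the test. Of 27 identifiers on the array from a list of AP-1 and immediate-early genes, 7 were tested and 0 passed, where 371 of all 1518 identifiers (24.4%) were tested, and their median was -0.043 against 0.0022 over all tested probes. FOS and EGR1 were above 1000 on 2 of 6 arrays and ATF3 on 0, and none of these 3 was tested. FOSB, an AP-1 subunit, had the highest mean of the list at 0.099, with ratios of 0.036, 0.25, 0.51 and 0.39 in replicate 1 and -0.27 and 0.077 in replicate 2. It was above 0 on every array of replicate 1. JUN had sample means of 0.034 and -0.52, and JUNB, the lowest of the list, had 0.10 and -0.74 (its mean of -0.32 was 0.017 with median centring and 0.17 in the deposited ratios), so the tested FOS and JUN subunits of AP-1 were above 0 in replicate 1 and below 0 in replicate 2. ZFP36, which speeds the decay of inflammatory messenger RNAs, had sample means of 0.075 and -0.65. In all 7 members the samples had opposite signs.

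Stress and inflammatory regulators had no member past the test either. Of all 371 tested probes 189 had means above 0, 101 were above 0 in both samples and 90 below in both. Of 20 stress, hypoxia and heat shock factors 6 were tested, 0 passed, and 4 were above 0 in both samples and 0 below in both, with a median of 0.20 and XBP1 the highest. For 0 of these 6 was the sign the same in all 4 sample-by-dye means. Relative to the median of all tested probes, the median of this list was 0.197 in the main setting and 0.0509 with the median of pixels. Of 28 NFKB, STAT and IRF identifiers 6 were tested and 0 passed, with 3 means above 0, 3 below and a median of 0.041. NFKBIA, the inhibitor that NF-kappaB itself induces, had sample means of 0.16 and 0.13. It was above 0 in all 4 sample-by-dye means, the smallest being 0.013. NFKBIA was above a signal of 1000 on only 2 of 6 arrays, and 1 array gave -0.12. The means below 0 were -0.064 for RELB, -0.18 for CEBPB and -0.28 for NFKB2. Of 25 TGF-beta and BMP identifiers 9 were tested and 0 passed. Of these 9, 8 had means above 0, but only 5 were above 0 in both samples and 1 was below in both. In 0 of them did all 4 sample-by-dye means have the same sign. Their median was 0.070, and the highest mean was 0.25 for ID1, an inhibitor of helix-loop-helix factors whose array ratios ran from -1.48 to 1.53.

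Pathways of sensory development showed no shared direction. Of 13 Notch identifiers 5 were tested and 0 passed, with HEY1 and HES7 above and HEY2 below 0 in all 4 sample-by-dye means. HEY2, a close relative of HEY1, lay between -0.52 and -0.059 on 5 arrays and near 0 on the other, with sample means of -0.22 and -0.13. The median of the 5 was -0.032. Of 23 identifiers of the PAX and EYA families and their partners 8 were tested, 3 higher and 5 lower, with 0 passing and a median of -0.040, and 3 of 11 WNT identifiers were tested, with a median of 0.021. None of the EYA probes was bright enough to test.

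The medians of the growth and signalling lists ran from -0.14 to 0.059, against 0.0022 over all tested probes, and their differences from it were not tested. Of 32 cell cycle identifiers 12 were tested and 0 passed, with 7 above 0, 5 below and a median of 0.033, and MNT was the highest at 0.45. The 5 tested of 12 adenosine and cyclic AMP identifiers had a median of 0.055, led by ADORA2A. The 7 tested of 47 nuclear receptors had a median of 0.059, with NR1I3 the highest and the other 6 between -0.036 and 0.068. The 5 tested of 18 myocyte enhancer and cytoskeletal SRF partners had a median of -0.14, with MEF2B the lowest, and the 6 tested of 18 epithelial migration and wound identifiers had a median of -0.0095, with KLF5 the highest. None of these lists had a member that passed the test. Against the median of all tested probes, the Notch, WNT, adenosine, myocyte enhancer, and epithelial migration lists changed side under at least 1 of the alternatives without background correction, with median centring, with the median of pixels and with the deposited ratios.

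Markers of the cell types that the cultures could hold were read in the same way. Over all identifiers 457 of 1518 (30.1%) exceeded 1000 in Cy3 or Cy5 on 3 or more of the 6 arrays. For hair cells this was 0 of 5 markers, and the defining hair cell factors POU4F3 and GFI1 were above 1000 on 0 of 6 arrays and ATOH1 on 2. The only hair cell marker tested, ISL1, had a mean of -0.063. For supporting cells and SE it was 3 of 13, for connective tissue 2 of 9, for neurons and ganglia 4 of 8, for blood cells 2 of 12 and for muscle 3 of 6. SOX2, which marks supporting cells and their precursors, had ratios of -0.0066, -0.019, 0.21 and -0.066 in replicate 1 and -2.33 and 0.082 in replicate 2, so its mean of -0.55 ± 0.56 (SE) came from 1 array. MSC was placed on the connective tissue list, but the paper's annotation is musculin, an activated B-cell factor, and names no connective tissue. It had sample means of 0.38 and 0.31, with 1.97 and -1.36 on the arrays of replicate 2. The median of the 2 tested probes of that list, MSC and TCF21, was 0.21, against -0.080 for the 5 tested markers of supporting cells and SE. TCF21 alone had a mean of 0.072, so the list median cannot be read as one of connective tissue. Of the 4 tested neuronal markers, with a median of 0.10, NEUROD6 had a mean of 0.26, ARIX 0.24, NEUROG1 -0.032 and POU4F1 -0.43, the last with sample means of -1.03 and 0.17. Of the 3 tested blood cell markers, with a median of -0.026, POU2AF1, a cofactor of B cells, had a mean of 0.30 and was above 0 on all 6 arrays, while GFI1B had a mean of -0.026 and SPI1 one of -0.053. Relative to the median of all tested probes, the neuronal median was 0.101 in the main setting and -0.0481 with the deposited ratios. The blood cell median was -0.0279 in the main setting and 0.0524 without background correction, so both lists changed side. No marker passed the test, and the part of other cell types in the ratios was not tested. By staining such cultures for N-cadherin, the paper found label at nearly all cell junctions and read them as holding very few cells from outside the SE. In such bulk RNA fewer cells of a type and less RNA per cell cannot be told apart.

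The 1 hr ratios were also set against the other time points, each measured against its own controls. In the difference of the 1 hr mean from the mean of the 30 min, 2 hr and 3 hr means, 0 of 371 probes (0%) passed the adjusted limma test, the smallest adjusted p was 0.998, and 4 had an unadjusted p under 0.05. These 4 were AB026190, FOG2 and, outside the rule for named genes and picked out after their values were seen, VENTX2 and ATBF1. FOG2 was 0.43 at 1 hr and -0.22, -0.19 and -0.066 at 30 min, 2 hr and 3 hr, a difference of 0.59 ± 0.25 (SE), unadjusted limma p = 0.0483. AB026190 was 0.39 at 1 hr and -0.16, 0.11 and -0.53 at the other times, a difference of 0.58 ± 0.23 (SE), unadjusted limma p = 0.0393. VENTX2, a homeobox factor, differed by 0.39 ± 0.16 (SE). ATBF1, a large zinc finger and homeobox factor, differed by -0.69 ± 0.28 (SE), with sample means at 1 hr of -0.77 and 0.18.

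Single contrasts were no firmer. Against 30 min, 3 probes had an unadjusted limma p under 0.05 and 0 an adjusted one, and KLF5 was among them, at 0.46 at 1 hr and -1.09 at 30 min (unadjusted limma p = 0.0459). Against 2 hr there were 2 such probes and against 3 hr 7, with 0 past adjustment in either. HNF3A was -0.029, -0.032 and -0.65 at 30 min, 2 hr and 3 hr against 0.64 at 1 hr. The mean at 3 hr came from 1 sample, since HNF3A was -1.75 in replicate 1 of 3 hr and -0.12 and -0.079 in the others. HEY1 was 0.16, 0.032 and 0.065 at 30 min, 2 hr and 3 hr against 0.44 at 1 hr, and its difference from the other times was 0.35 (unadjusted limma p = 0.149). The spread in all these tests included replicate 1 of 3 hr, whose ratios had an SD across probes of 1.03 against 0.16 to 0.40 in the other 8 samples. Without it 21 of 371 probes had an unadjusted p under 0.05 at 1 hr and 0 an adjusted one. A share of 0.05 of the tests would fall under that value where nothing changed, and 21 of 371 is near that share.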

How the data were processed

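Per the file headers, the deposited channel files give the intensity of each spot and of its surroundings in linear units, read by ImaGene from 1 scanned image each, neither background-subtracted nor normalized. A table of log2 ratios of laser over control was deposited too, and it equalled the raw ratios of the channel files to within 6.22e-15. Its scale and direction are therefore known, it is not centred, and its 1 hr columns had medians from -2.05 to 2.47. The authors went on to lowess normalization and to filters whose output was not used here.

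Background was corrected with normexp (offset 50) and ratios were normalized within arrays by loess, with mismatch controls and blanks at weight 0. Spots of an identifier were averaged, then arrays within a dye orientation, then orientations. Technical arrays of a biological sample counted as 1 replicate. No 2 arrays of 1 hr held identical values. Under R 4.3.3, limma 3.58.1 was used to fit a mean per time point to the 9 samples (5 residual degrees of freedom), with Benjamini-Hochberg adjustment over the 371 tested probes. Random blocks used statmod 1.5.0. The labels call the samples biological replicates, and cultures were pooled, so the p-values measure the spread between pools. The number of arrays limits the precision. The plan to set the dim level from control spots was not used, since no column names them, and a signal of 1000 was used.

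The named genes were up to 10 higher and 10 lower probes with the largest means among those with 1 sign in all 4 sample-by-dye means, those with an unadjusted p under 0.05, those detectable on 80% of the arrays, the 5 in each direction with the largest dye effect of 1 sign, and members of gene lists. Results of 2 probes that the rule named are not reported here. The lists and the 1 hr arrays were chosen with earlier results of these data known. The procedure was also run on simulated data, in which the dye effect of a probe had the same size on every array. That run could not test dye effects that differ between samples, as they did here. Alternatives are given in the closing section, and leaving out the dimmer pair of replicate 1 and the scan session as a random block were chosen after seeing the data.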

Additional observations from a re-analysis of the deposited data

Results flagged for a closer look

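Ratios of the named probes over the 6 arrays of 1 hr, and 5 summaries of those arrays, were searched for a single array that stood apart from the other 5. Chance marks about 1 in 20 such groups where they are not chosen by their values, the 6 arrays come from only 2 samples, and 5 of 39 were marked. Many of the probes searched were named for large values in these same data, which 1 extreme array can produce. The 5 of 39 therefore cannot be read against that rate. HEY1 gave 1.25 on the Cy3 array of replicate 2, where the others gave -0.0051 to 0.30. TAF2C1 gave 1.53 on the brighter Cy5 array of replicate 1, where the others gave 0.032 to 0.35. CDX1 gave -2.08 and BC002881 gave -0.83 on the Cy3 array of replicate 2, where the others gave -0.42 to 0.13 and -0.25 to 0.081. AF5Q31 gave -2.79 on the brighter Cy3 array of replicate 1, where the others gave -0.11 to 0.59 and where its wounded channel read 65530. The part of brightness or of the dye in these values was not tested. No difference between 1 hr and the other times passed an adjusted limma test.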

How the results depend on the processing

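No probe passed the adjusted limma test at 1 hr, or in the difference from the other times, under any alternative run except 1. With the 1 hr samples fitted alone 2 probes passed, among them FLJ11186, which was near the scanner limit on some arrays. The count past thresholds like those of the study's methods was 1 in the main setting and moved with nearly every choice. It was 0 at a filter level of 1200 and with the replicate block, 2 with the median of pixels, 3 with each array as a unit (sample as random block), with the methods' t-test on the biological samples (0 after adjustment) and without the dimmer pair of replicate 1, and 4 with the filter over the 1 hr arrays alone and with the scan session as a random block. It was 5 with median centring, 7 without background correction and with the deposited series table, 8 at a filter level of 800 and with the 1 hr samples fitted alone, 9 with sample weights (whose fit stopped before it converged) and with the methods' t-test on the 6 arrays (0 after adjustment), and 14 with no filter. Turning the Cy5 array of replicate 2 gave 10 and turning its Cy3 array gave 12. Leaving out single samples gave 0 to 12. The replicate block left the adjusted calls at 0 and moved the means over 1.2-fold from 34 higher and 33 lower to 52 and 22. Samples of other times with the same number as a 1 hr sample correlated with it at -0.37 to -0.056 in their deviations. Those with a different number correlated at -0.29 to 0.37. With 2 samples at 1 hr their deviations mirror each other, so these values cannot decide whether the numbers pair samples, and the main fit did not pair them.

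The count of detectable probes was 9 at a signal of 800, 75 in either channel, 58 by local background plus 2 SD, and 3 to 36 when a 1 hr replicate was left out. The replicate correlation was 0.205 with the deposited series table. The orientation correlation of replicate 2 was -0.531 with no filter, -0.518 with the median of pixels, -0.771 in the deposited table and 0.638 with either array turned.

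Of 1329 values of named probes under alternatives 1286 kept their direction. Many of these could not change, so that count does not measure robustness. Other filters, sample weights and leaving out samples of other times leave the 1 hr mean of a probe as it is. With the Cy3 array of replicate 2 turned, the values that reversed were HEY1 -0.188, CDX1 0.40, BC002881 0.117, HOXA6 0.0907, FLJ11186 0.49, MEF2B 1.11, PRDM13 0.0266, FOXP1 -0.98, C21orf18 -0.863, TCF21 -0.858, MADH7 -0.843, JUN 0.402, ZFP36 0.0835, SOX2 0.617, POU4F1 0.105 and MSC -0.64. With the Cy5 array turned they were PRKCSH -0.113, XBP1 -0.0436, PAX7 -0.541, ADORA2A -0.65, AB026190 -1.22, BAPX1 -1, JUNB 1.10, MNT -0.0699 and ID1 -0.103. The deposited table reversed LOC57209 to 0.0293, HOXA6 to 0.0705, AF5Q31 to 0.653, FLJ11186 to 0.050, PRDM13 to 0.373 and JUNB to 0.166, and median centring reversed AF5Q31 to 0.511, PRDM13 to 0.269 and JUNB to 0.0174. When single samples were left out, JUNB ran from -0.74 to 0.104, FOSB from -0.0953 to 0.294, JUN from -0.517 to 0.0341, ZFP36 from -0.653 to 0.0747, SOX2 from -1.12 to 0.0301, POU4F1 from -1.03 to 0.168, ISL1 from -0.13 to 0.00514, CEBPG from -0.962 to 1.56 and AY044845 from -0.271 to 0.877. Apart from the turned arrays, which change the data by construction, the cause was not tested. Dim signal limits what can be seen, since 1147 of 1518 identifiers were not tested.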
